A study of Mus musculus with 2 samples.

Results

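Short distal 3′UTRs are the stretches of less than 200 bp that lie between the most proximal annotated poly(A) site of a transcript and its annotated 3′ end. All entries of the deposited table with a distal 3′UTR (d3′UTR) of known length below 200 bp and with an upstream part of the last exon were taken, which gave 1588 of 8740 d3′UTRs, or 18.2%. They fell on 1244 genes, of which 229 had more than 1 such entry, and the transcript with the most last-exon reads stood for each gene because isoforms share reads. The lengths ran from 21 bp up to the limit with a median of 86 bp, and 409 entries (25.8%) were under 50 bp.

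The libraries were made from mTEChi, the medullary thymic epithelial cells with high MHC class II, sorted as CD45-, Ly51- and I-A/E high cells from 1 mouse. This B6 mouse was lentigenic: 1 lentivector brought in shRNAs against Clp1 joined to a green reporter (ZsGreen, sorted as GFP) under the doxycycline-inducible TRE3G promoter, and a further construct with the TetOn3G transactivator under the EF1 promoter. Food pellets with doxycycline (2 g/kg) were given from the age of 3 weeks, over 2 weeks. GFP+ cells gave the Clp1 knockdown library and GFP- cells of the same thymus gave the Ctr library, so both groups had the drug and differed in whether the reporter was on; the labels do not say whether GFP- cells carried the vector. There was 1 library per group and no replicate, so no value below carries a p-value; intervals cover counting error, or the spread over genes, and not the variation between mice.

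The 3′ end of most mRNAs is made by cleavage followed by addition of a poly(A) tail. The cleavage complex recognizes a hexamer, most often AATAAA or its variant ATTAAA, that lies a short way upstream of the cut, and Clp1 is a subunit of the complex's cleavage factor II. Where a gene has several poly(A) sites, use of the proximal site removes the distal stretch, with any binding sites for microRNAs and proteins in it, from the mRNA.

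The d3′UTR ratio compares the reads per bp of the distal stretch with the reads per bp of the upstream part of the same last exon; it is low where most mRNAs end at the proximal site. The sequences before the 2 sites are shown for a few members with different hexamers, since the median ratio differed with the hexamers there (below); they were picked as examples, and Pmel as one that goes against the medians. Each line gives the 30 bases that end at a site on the mm9 build, in the 5′ to 3′ direction of the mRNA, with AATAAA or ATTAAA in capitals. Cox7a2, a subunit of cytochrome c oxidase, and Tmem263, a transmembrane protein, are, among members of 75 bp or more with no distal read, 2 of the 4 with the most upstream reads. Sgpl1, the sphingosine-1-phosphate lyase that degrades this lipid messenger, and Dpy30, a subunit of histone H3K4 methyltransferase complexes, are among the 6 with the most distal reads. Zfp36 binds AU-rich elements and shortens the life of mRNAs, Krt17 is a keratin and Pmel a melanosome protein.
Cox7a2, before the proximal site (chr9:79603214-79603243, minus strand): aactgctgccAATAAAgcaatccttaacca
Cox7a2, before the annotated end (chr9:79603048-79603077, minus strand): atgtgtattcacttttagcagctagggata
Tmem263, before the proximal site (chr10:84580299-84580328, plus strand): tgaatctgatAATAAAggactatgatctac
Tmem263, before the annotated end (chr10:84580463-84580492, plus strand): gatgtagacacaacagtaaagtgcaaacac
Krt17, before the proximal site (chr11:100117583-100117612, minus strand): gcttgagaccATTAAAgcttgctgacctga
Krt17, before the annotated end (chr11:100117531-100117560, minus strand): gaacactgaAATAAAtgaccatggtgacaa
Pmel, before the proximal site (chr10:128157151-128157180, plus strand): caatatctgaAATAAAttctcagaaccttg
Pmel, before the annotated end (chr10:128157265-128157294, plus strand): cactttattagaatgaggcattttttcagt
Zfp36, before the proximal site (chr7:29161866-29161895, minus strand): gtatatgctataatatattaatatattgct
Zfp36, before the annotated end (chr7:29161803-29161832, minus strand): atttttaAATAAAatcttgagtgtgaactg
Sgpl1, before the proximal site (chr10:60561510-60561539, minus strand): ttttaatattaccagttttatacttggaaa
Sgpl1, before the annotated end (chr10:60561390-60561419, minus strand): caattgaatAATAAAtgtcccaaactgtaa
Dpy30, before the proximal site (chr17:74699011-74699040, minus strand): acgaggcagctttaattgccatgattcccc
Dpy30, before the annotated end (chr17:74698814-74698843, minus strand): aAATAAActgttaaaacacctttattttat

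In these lines the hexamer stood before the proximal site alone in Cox7a2, Tmem263 and Pmel, before both sites in Krt17, and before the annotated end alone in Zfp36, Sgpl1 and Dpy30. Cox7a2 had 3630 (Ctr) and 2988 (knockdown) upstream reads but 0 reads in its 166-bp d3′UTR in either library. Tmem263 had 1568 and 1379 upstream reads and 0 reads in its 164 bp. Sgpl1 had ratios of 0.725 (Ctr) and 0.689 (knockdown) over 120 bp, and Dpy30 had 1.20 in both over 197 bp. Zfp36 had 0.168 and 0.165 over 63 bp, and Krt17 0.00634 and 0.0111 over 52 bp. Stretches as short as those of Zfp36 and Krt17 have few positions at which a full read can start, which limits the ratio per bp. With the number of such positions in place of the length, Zfp36 had 0.735 (Ctr) and 0.721 (knockdown), and Krt17 0.0863 and 0.152. By the same measure Sgpl1 had 1.20 and 1.14, and Dpy30 had 1.09 in both. Pmel, with the hexamer at the proximal site alone like Cox7a2, had 2.85 and 13.1 per bp. The d3′UTR of Pmel lies over an exon of Dgka on the opposite strand. In all, 65 genes had a ratio above 1 in both libraries.

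Read counts summed over all transcripts were 28464803 in Ctr and 37524730 after knockdown, in which a read can count for more than 1 isoform. With every entry included, the short d3′UTRs took 1.497% and 1.58% of all d3′UTR reads. Clp1 itself had 1573 (Ctr) and 812 (knockdown) reads, which after scaling for depth was 39.7% of Ctr (95% interval 36.4 to 43.2), so the target was lower in the library labelled as its knockdown. By the study's account, the mouse sequenced was the pup whose GFP+ cells showed less Clp1 mRNA. This value is therefore no independent check of the knockdown. The markers of mature mTEC were present in both libraries (summed RPM, reads scaled to equal library totals, 2095 in Ctr and 2628 in knockdown, none of 14 genes at 0). Markers of other cells differed between the libraries: those of red cells summed to 3160 and 102 RPM, of endothelium to 669 and 55.8, of thymocytes to 722 and 227, of B cells to 68.3 and 23.98, of fibroblasts and mural cells to 626 and 324, of cortical epithelium to 1561 and 1269 and of dendritic cells and macrophages to 791 and 871, with no listed gene at 0. In bulk RNA, fewer cells of a type and less RNA per cell cannot be told apart, and the part of these differences in the changes below was not tested.

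Whether a short d3′UTR held reads followed its length. Sequencing reads were 50 bases long, and by the study's methods a read was counted only where a feature held all of it, so that a stretch under 50 bp has no position for a full read and a stretch of 75 bp has few. Of the 328 genes with less than 50 bp, 8.23% had a distal read in Ctr (Wilson 95% interval 5.72 to 11.7) and 9.15% in the knockdown library (6.48 to 12.8). From 50 to under 75 bp the shares were 41.3% and 43.8%, from 75 to under 100 bp 65.0% and 67.2%, from 100 to under 150 bp 66.7% (61.1 to 71.8) and 79.8% (74.9 to 84.0), and from 150 bp on 70.1% and 78.8%. The knockdown library was the deeper of the pair, and with its reads thinned at random to the Ctr total its share over all members was 52.1% (49.3 to 54.9), beside 53.4% unthinned and 47.6% in Ctr (44.8 to 50.4). Over all 1244 genes, 592 had a distal read in Ctr and 664 in the knockdown library, while 523 had none in either. A gene with no read in a stretch too short to hold one says nothing of its poly(A) site use.

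Among the 1051 genes with at least 10 last-exon reads in each library, the median d3′UTR ratio was 0.0474 in Ctr (95% interval of the median over genes 0.0178 to 0.0663) and 0.0666 in the knockdown library (0.0493 to 0.0973). It followed the length: the median was 0 in both libraries below 50 bp, 0.213 and 0.204 from 75 to under 100 bp, 0.281 and 0.336 from 100 to under 150 bp, and 0.369 and 0.420 from 150 bp on. Dividing by the number of positions at which a 50-base read can start, in place of the length, removed much of this trend above 75 bp, with medians of 0.427 and 0.366, 0.424 and 0.539, and 0.419 and 0.469 in the same bins. Between 50 and 75 bp the median by start positions was still 0 in Ctr and 0.0891 in the knockdown library. Just inside and just outside the limit of 200 bp, the ratio per bp was 0.401 and 0.385 at 180 to under 200 bp (83 genes) and 0.405 and 0.440 at 200 to under 220 bp (89 genes). The intervals of the median ratio in Ctr and knockdown overlapped in each of these bins. They show the spread over genes and ignore that both libraries measured the same genes. Their overlap therefore does not tell whether the libraries differ, and the change within each gene is given below.

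**Figure D1:**
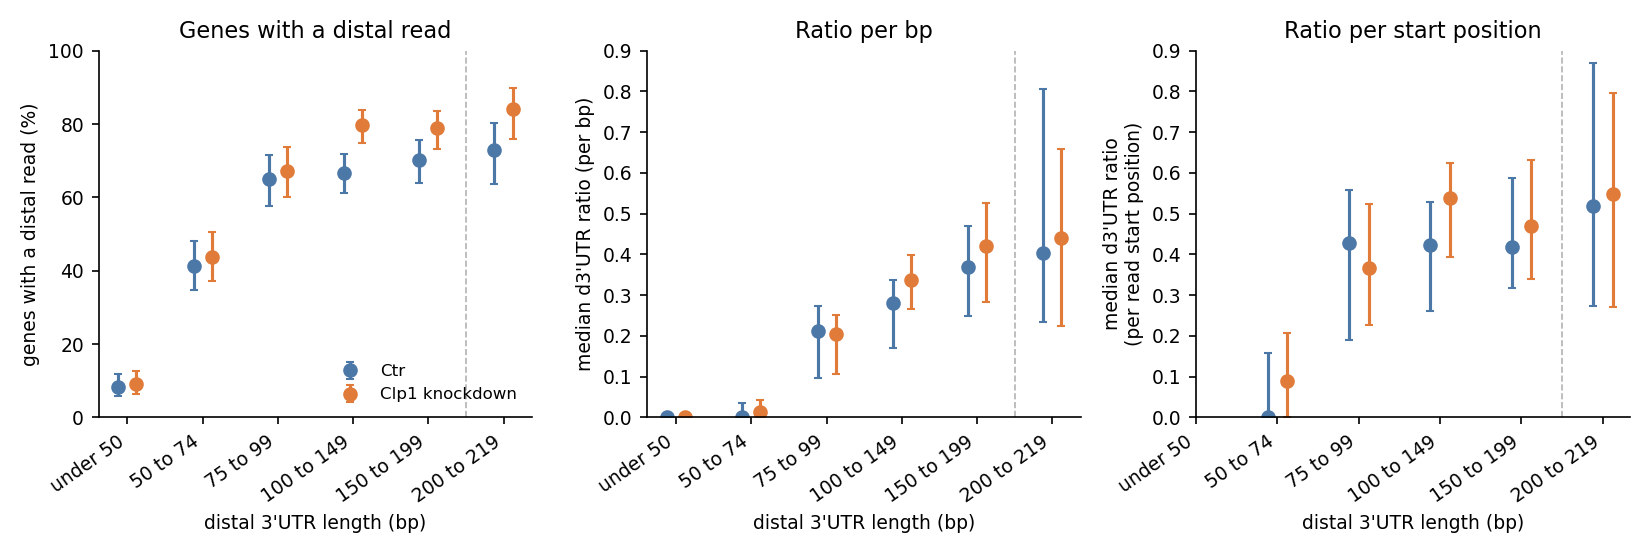
Share of genes with a distal read (left, %), median d3′UTR ratio per bp (middle) and median ratio per read start position (right) against d3′UTR length in bp, for Ctr and Clp1 knockdown; bars are 95% intervals (Wilson for shares, of the median over genes for ratios), and the dashed line marks the limit of 200 bp. The share rises from 8.23% under 50 bp to 65.0% at 75 to under 100 bp in Ctr, and the rise of the ratio above 75 bp is flatter per start position than per bp.

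Since 32 genes had reads in a d3′UTR shorter than a read, a count that full containment does not allow and whose reason was not tested, the place of the d3′UTRs in the genome was examined. By matching last-exon lengths to the GENCODE annotation of mm9 within 100 bp, 948 of the 1244 genes could be placed, and 90 of these (9.49%) lay over an annotated exon of a gene on the opposite strand, beside 9.03% of 4075 longer d3′UTRs. Among the placed genes under 50 bp, 20 of 26 with a distal read lay over such an exon, against 7 of 237 without one. From 50 bp on the counts were 60 of 526 and 3 of 159. The sources used here do not tell if counting took strand into account, and without strand reads of a gene and of its opposite-strand neighbour cannot be told apart.

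Trpt1 and Fermt3, which lie on opposite strands of chromosome 19 and overlap at their ends, are an example. Fermt3, an integrin activator of blood cells, had 24 (Ctr) and 28 (knockdown) reads in its d3′UTR of 21 bp (chr19:7073448-7073468), while its upstream reads went from 346 to 56. It overlapped an exon of Trpt1, a tRNA phosphotransferase with 264 and 312 reads in all. Trpt1 in turn had 46 and 18 distal reads in 21 bp over an exon of Fermt3, which went from 1207 to 130 reads. Scaled for depth, its distal reads changed by −1.70 on the log2 scale, between its own upstream reads (−0.78), to which they lay closer, and Fermt3 (−3.59). Over 68 members with at least 10 distal reads that overlap a measured gene, the log2 ratio of distal reads between the libraries had a Pearson r of 0.55 with that of the opposite gene and of 0.31 with that of their own upstream part. Over 307 placed members without such an overlap the r with their own upstream part was 0.55. These are descriptions across genes of the same 2 libraries. The r of 0.31 takes in Elac2, with 0 upstream reads in Ctr, whose log2 ratio was 6.22 upstream beside −0.72 distal. It also takes in Egfl8, with 4.21 upstream beside 1.21 distal. The r without these genes was not computed. The distal reads lay closer to the opposite gene than to their own upstream part in 33 of the 68, which were 12 of the 17 under 50 bp and 21 of the 51 of 50 bp or more.

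The median ratio of the members differed with the hexamers before the 2 sites. AATAAA, read on the strand of the mRNA in the 40 bases before the site, stood before the proximal site in 50.5% of 948 placed genes and before the annotated end in 39.9%. ATTAAA stood before 17.4% of proximal sites and 17.4% of ends. AATAAA or ATTAAA was found in 2.16% of 926 windows of the same size that end 100 bases upstream of the proximal site. Either hexamer stood before the proximal site in 64.7% of the short ones and before the end in 56.2%. This difference lay mainly below 75 bp, with 70.7% and 45.6% under 50 bp and 63.9% and 54.2% from 50 to under 75 bp. The shares were 59.9% and 66.7% from 75 to under 100 bp, 61.2% and 60.3% from 100 to under 150 bp, and 64.3% and 60.0% from 150 bp on. Of d3′UTRs of 200 to under 1000 bp, 55.4% had a hexamer before the proximal site and 73.1% before the end, and of those of 2500 bp or more 46.3% and 85.7%.

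For genes of 75 bp or more, in which both windows fit without overlap, the median ratio was 0.0889 in Ctr (0.0153 to 0.157) and 0.0430 in the knockdown library (0.0143 to 0.131) where only the proximal site had a hexamer (101 genes). It was 0.265 and 0.297 where both had one (194 genes), 0.396 and 0.441 where neither had (71 genes), and 0.507 (0.374 to 0.648) and 0.535 (0.434 to 0.668) where only the annotated end had one (100 genes). No distal read in either library was found for 26.7% of the first set (Wilson 95% interval 19.1 to 36.1) and for 4 of the 100 genes of the last (1.57 to 9.84%). The order from the first set to the last was the same in both libraries, and the intervals of the first and last sets did not overlap. It held at 100 to under 150 bp, with 0.0889 and 0.0902 for a proximal hexamer alone and 0.591 and 0.619 for one at the end alone, and from 150 bp on, with 0.190 and 0.0615 against 0.748 and 0.726. At 75 to under 100 bp, where sets held 17 to 57 genes, the ends of the order were 0 in both libraries and 0.343 and 0.283, but in Ctr the set with neither hexamer (0.132) lay below that with both (0.244). Without members over an opposite-strand exon the medians were 0.0420 and 0.0328 for a proximal hexamer alone and 0.461 and 0.509 for an end hexamer alone. The same order was seen at 200 to under 1000 bp, from 0.178 and 0.207 to 0.877 and 0.894. Single genes departed from the medians: with a hexamer at the proximal site alone, Kansl1l, which lies over an exon of Rpe, had 7.45 and 6.11 and Osbpl1a had 2.07 and 6.92, and with neither, Crb2 had 5.13 and 32.6. The sets were formed after the values were seen, and other sequence features of the sites were not examined.

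**Figure D2:**
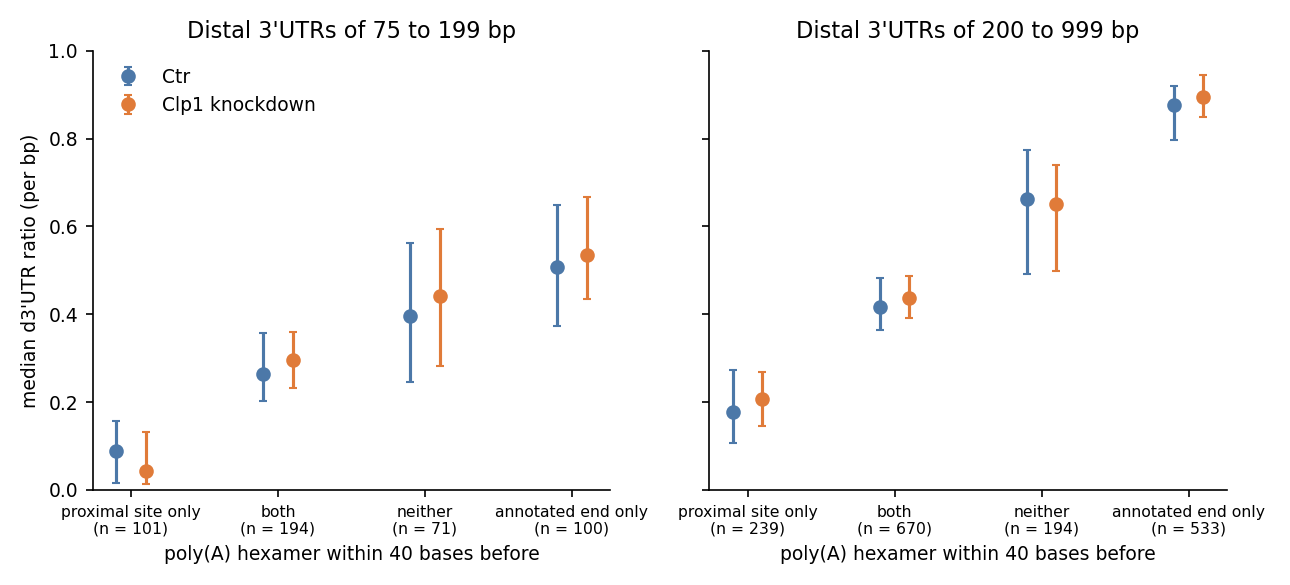
Median d3′UTR ratio per bp in Ctr and Clp1 knockdown by whether AATAAA or ATTAAA stood within 40 bases before the proximal poly(A) site, before the annotated end, before both or before neither, for placed d3′UTRs of 75 to under 200 bp (left) and 200 to under 1000 bp (right); bars are 95% intervals of the median over genes. In both panels the ratio is lowest with a hexamer at the proximal site alone (0.0889 and 0.178 in Ctr) and highest with one at the end alone (0.507 and 0.877), and the libraries lie side by side in each set.

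The comparison of GFP+ with GFP- cells asks whether less Clp1 goes with another choice of poly(A) site. Across 459 genes with a short d3′UTR, at least 10 distal reads and a ratio above 0 in both libraries, the log2 ratios had a Pearson r of 0.82. The ratios had a Spearman rho of 0.83. The lengths of a gene enter both of its ratios alike, so part of this correlation is built in. Of the 480 genes with at least 10 distal reads over both libraries, 338 (70.4%) changed by less than 2-fold, 243 lay above 0 and 236 below, and the median log2 change of knockdown over Ctr was 0.004 (95% interval −0.04 to 0.09). The quartiles were −0.51 and 0.58. By length, the median lay above 0 at 100 to under 150 bp (0.17, 0.07 to 0.31, 176 genes), while from 75 to under 100 bp (−0.14, −0.38 to 0.05, 85 genes) and from 150 bp on (−0.02, −0.17 to 0.06, 156 genes) its interval held 0. At 200 to under 1000 bp the median was 0.04, at 1000 to under 2500 bp 0.005 and at 2500 bp or more 0.008.

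A gene was called where the ratio differed by 2-fold or more and the exact 95% interval of the change, which depends only on the reads since lengths cancel, excluded 0. Of the 1051 genes, 55 were called higher in the knockdown library (5.23%), where 13.9% of all 5769 d3′UTRs tested were, and 56 lower (5.33%), where 12.6% of all were. Few reads limit such calls: 376 of the 1051 had no distal read in either library and could not be called. Among genes with at least 10 distal reads, 9.17% of the short ones were higher and 10.2% lower, beside 15.7% and 14.4% over all lengths. Genes were also set side by side at like numbers of distal reads. With 10 to 49 distal reads over both libraries, 14.9% of the short ones were higher and 12.3% lower, beside 40.5% and 22.3% of those of 200 bp or more. With 50 to under 200 reads the shares were 5.78% and 10.98% beside 26.3% and 26.7%, and with 200 or more reads 0% (0 of 79) and 2.53% beside 8.09% and 9.11%. In these bands the short d3′UTRs had more last-exon reads (a median of 553 against 316 at 10 to 49 reads), and the part of this in the shares was not tested. Of the short ones called, 19 of the 55 higher had 0 distal reads in Ctr. With 3 reads put in place of the 0, their folds ran from 1.62 to 7.33, under 2-fold for 5 of them. These folds leave out the counting error of the other reads, and the lower ends of the exact 95% intervals lay below them. Those lower ends ran from a log2 change of 0.12 to 2.25. Of the 56 lower, 11 had 0 distal reads in the knockdown library.

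**Figure D3:**
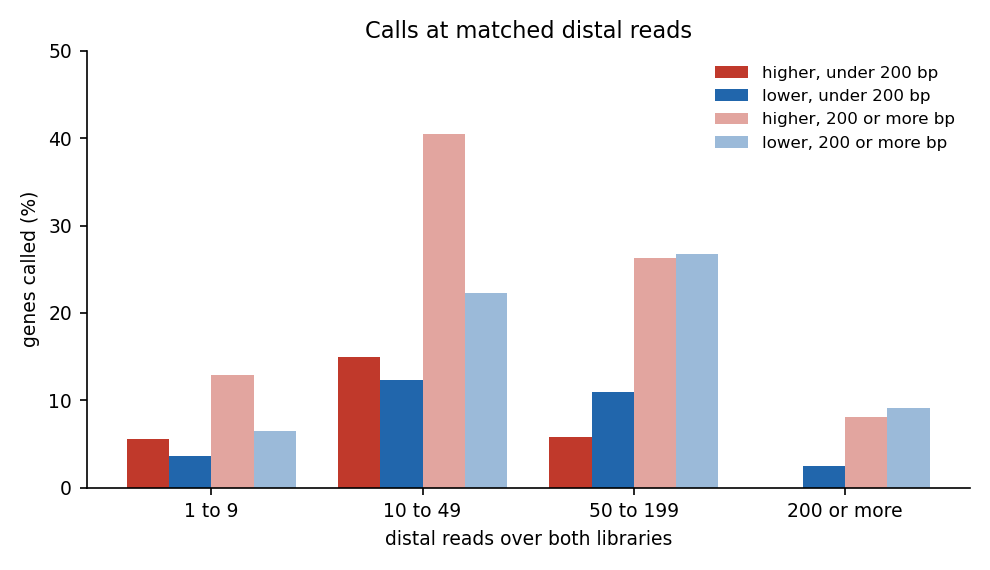
Share of genes called 2-fold higher or lower in the Clp1 knockdown library (%), by distal reads over both libraries, for d3′UTRs under 200 bp (full colour) and of 200 bp or more (pale). In each band of reads the bars of the short d3′UTRs are lower than those of the longer ones, for example 14.9% against 40.5% higher at 10 to 49 reads.

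**Figure D4:**
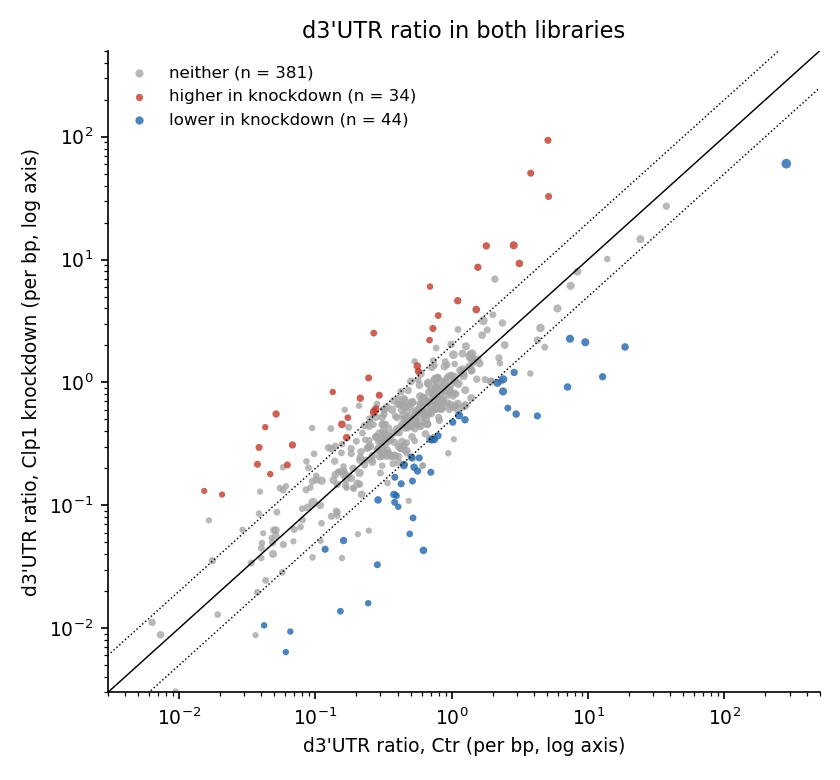
The d3′UTR ratio per bp in Clp1 knockdown against Ctr, both on log axes, for the 459 short d3′UTRs with at least 10 distal reads and a ratio above 0 in both libraries; the full line marks equal ratios, the dotted lines 2-fold, and colours mark calls. Most points lie between the dotted lines, and the ratios span from below 0.01 to 284.

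The 6 members with the most distal reads were Hspa5, Sgpl1, Dpy30, Atox1, H2-D1 and Agbl5. Hspa5 (BiP), the main chaperone of the endoplasmic reticulum, had 847 and 3437 distal and 6988 and 28410 upstream reads in Ctr and knockdown, so that both parts rose alike and the ratio was 0.475 and 0.474 (log2 change −0.003, −0.12 to 0.11). Its expression was higher in the knockdown library (log2 1.69, 1.67 to 1.72), with 19188 and 80709 reads. Sgpl1 (−0.07, −0.23 to 0.08), Dpy30 (0.004, −0.26 to 0.26) and Atox1, a copper chaperone (0.06, −0.08 to 0.20), had intervals that held 0. H2-D1, a classical MHC class I chain, had 1118 and 1699 distal beside 43265 and 60150 upstream reads, with ratios of 0.0960 and 0.105, and lay at 0.13 (0.02 to 0.24), far under the 2-fold limit. Agbl5, a tubulin deglutamylase, stood apart: 1497 and 1503 distal reads lay beside 19 and 90 upstream reads, which gave ratios of 284 and 60.3 and a change of −2.21 (−3.04 to −1.50) while the distal reads stayed level.

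The 8 strongest increases, by the bound nearest 0 among members with at least 20 distal reads, mostly had falling upstream reads. Cers1, a ceramide synthase, and Gdf1, a growth factor, come from 1 bicistronic transcript and share their 10 and 23 distal reads on 22 bp over an exon of Upf1 on the opposite strand; their upstream reads fell from 144 to 18 and from 104 to 18, and the log2 changes were 4.13 (2.80 to 5.64) and 3.66 (2.32 to 5.18). Fermt3 changed by 2.83 (1.89 to 3.801) as described above. Psd4, an exchange factor for Arf6, had 11 and 13 distal and 390 and 49 upstream reads (3.21, 1.86 to 4.61). Zmym3, a zinc finger protein, had 13 and 34 distal and 83 and 39 upstream reads (2.43, 1.33 to 3.67), and Pmel had 73 and 93 distal and 54 and 15 upstream reads (2.16, 1.21 to 3.24). Ppil2, a cyclophilin-like protein, differed in that its distal reads went from 2 to 46 with 301 and 644 upstream (3.12, 1.47 to 6.52). In Irf2bp1, a transcriptional corepressor, distal reads went from 12 to 33 as upstream reads went from 2176 to 1310 (2.15, 1.19 to 3.28).

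The 8 strongest decreases included 2 in which distal reads nearly vanished. Alkbh7, a mitochondrial dioxygenase, had 64 (Ctr) and 6 (knockdown) distal reads, with 108 and 146 upstream, so that the ratio went from 0.619 to 0.0430 (log2 change −3.74, −5.39 to −2.57). Dll3, a Notch ligand that acts within the cell, had 24 and 0 distal with 90 and 135 upstream reads (log2 change −3.12 or below). Its expression differed little, with 869 and 1071 reads. In Ankrd6, an ankyrin repeat protein of Wnt signaling (40 and 28 distal, 75 and 404 upstream, −2.93, −3.78 to −2.11), Neurl4, a centriolar protein (20 and 27 distal, 6 and 93 upstream, −3.42, −5.24 to −1.95), Pld1, phospholipase D (20 and 9 distal, 945 and 3685 upstream, −3.07, −4.44 to −1.91), and Psmc3ip, a factor of meiotic recombination (22 and 15 distal, 31 and 168 upstream, −2.96, −4.19 to −1.79), the upstream reads rose. Atg9b, an autophagy protein, had 28 and 40 distal and 7 and 96 upstream reads (−3.18, −4.80 to −1.87). Elac2, the tRNA 3′ endonuclease, had 0 (Ctr) and 42 (knockdown) upstream reads. Its 18 and 14 distal reads lay in 37 bp over an exon of Arhgap44 (log2 change −3.44 or below).

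Of the sequences of these genes, Pld1 and Psd4 had AATAAA before the proximal site and no hexamer in the 30 bases before the annotated end, and moved in opposite directions. Ankrd6, Neurl4 and Zmym3 had none before the proximal site and ATTAAA or AATAAA before the end.
Pld1, before the proximal site (chr3:28032127-28032156, plus strand): tttatgAATAAAtaacttatttcttatatg
Psd4, before the proximal site (chr2:24264053-24264082, plus strand): atgggtgtgcAATAAAtagaacctaccaca
Ankrd6, before the annotated end (chr4:32891010-32891039, minus strand): cctatatgcATTAAAtgttgttttcagttc
Neurl4, before the annotated end (chr11:69727295-69727324, plus strand): aaggagccAATAAAtactgtcttcagagca
Zmym3, before the annotated end (chrX:98599723-98599752, minus strand): gaattgtttcaAATAAAgagttaaaattgt

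**Figure D5:**
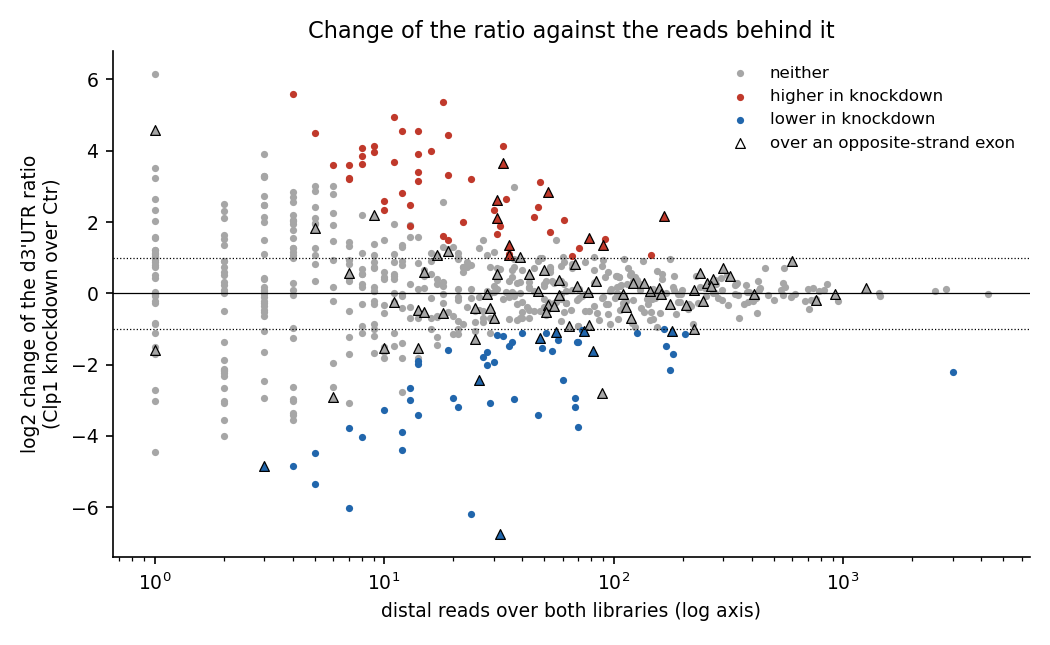
Log2 change of the d3′UTR ratio (Clp1 knockdown over Ctr) against distal reads over both libraries (log axis) for the short d3′UTRs with at least 1 distal read; colours mark calls, triangles mark d3′UTRs placed over an exon of the opposite strand, and dotted lines mark 2-fold. The spread narrows as reads increase, and with 200 or more reads 2 of 79 genes are called, both lower.

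Overlap with an opposite-strand exon was not particular to the genes called: it was seen in 9 of 45 placed genes called higher, 8 of 48 called lower and 55 of 300 called neither way with at least 10 distal reads. Of 12 genes of 50 bp or more with a ratio above 2 in both libraries, 3 of the 7 placed lay over such an exon. Among the other tested members of 50 bp or more, 56 of 577 placed did. The 4 highest ratios among genes of 75 bp or more with at least 100 upstream reads in each library were those of Cbarp, a regulator of calcium channels (8.35 and 7.97), Chd4, the remodeler of the NuRD complex (4.47 and 2.77), Rab3a, a GTPase of secretory vesicles (1.51 and 3.92), and Dhx32, a helicase-like protein (1.70 and 3.18); the d3′UTRs of Rab3a and Dhx32 lay over exons of Mpv17l2 and Bccip. At the low end were, beside Cox7a2 and Tmem263, Aldh3a2, a fatty aldehyde dehydrogenase (1468 and 3512 upstream reads), and Vps39, a tethering subunit of late endosomes (1116 and 2132), all with 0 distal reads. In all, 48 of 496 genes of 75 bp or more with at least 200 upstream reads over both libraries had no distal read.

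Aire-sensitive genes, which the study listed from other libraries of mTEChi with and without Aire, are those whose expression the regulator Aire raises, many of them tissue-restricted antigens. They made up 176 of the 1244 genes, and 94 could be tested. Their median ratio at 75 bp or more was 0.271 in Ctr and 0.294 in the knockdown library (60 genes), beside 0.275 and 0.290 for the other members. Of the 94, 4 were called higher (4.26%) and 3 lower (3.19%), beside 51 (5.33%) and 53 (5.54%) of the other 957. Over the 31 with at least 10 distal reads the median log2 change was −0.14 (−0.50 to 0.33), with 13 above 0 and 18 below, beside 0.02 (−0.03 to 0.10) in the others. The lists are small: the 94 had a median of 201 last-exon reads against 710, and 46 had no distal read in Ctr.

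The Aire-sensitive members called higher were Crb2, an apical polarity protein (20 and 11 distal, 104 and 9 upstream reads, log2 change 2.63, 1.04 to 4.29, over an exon of Dennd1a), Atp8b1, a phospholipid flippase (1 and 6 distal, 175 and 82 upstream, 3.20, 0.59 to 9.21), Nos3, the endothelial nitric oxide synthase (8 and 27 distal, 92 and 116 upstream, 1.36, 0.15 to 2.83), and Mat1a, a liver methionine adenosyltransferase (5 and 14 distal, 456 and 427 upstream, 1.49, 0.008 to 3.42). The d3′UTR of Nos3 lies over an exon of Atg9b, which was called in the opposite direction. Called lower were Atg9b, Lilrb4a, an inhibitory receptor of myeloid cells (7 and 0 distal, 15 and 67 upstream, −2.47 or below), and Lgals2, a galectin (24 and 2 distal, 317 and 174 upstream, −2.43, −5.86 to −0.68), whose 37 bp lie over an exon of Cdc42ep1. Car2, carbonic anhydrase 2, at −0.53 (−1.12 to 0.04), and Cd3g, a chain of the T cell receptor complex and a thymocyte marker, at 0.75 (0.01 to 1.48), were not called.

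By function, no list of genes with short d3′UTRs held more than 3 calls in a direction; the shares over all short d3′UTRs tested were 5.23% higher and 5.33% lower, and over all d3′UTRs 13.9% and 12.6%, and lists of this size allow no more than a count. Of 7 tested genes of the mitochondrial ribosome, 3 were lower and 1 higher: Mrpl55 had 47 and 23 distal with 335 and 427 upstream reads (−1.36, −2.20 to −0.60), Mrps30 10 and 3 (−2.65, −5.31 to −0.83), Mrps36 16 and 15 with 117 and 248 upstream (−1.17, −2.35 to −0.01), and Mrpl16 0 and 19 with 386 and 686 upstream (1.38 or more). Mrpl3, with the most distal reads of this list (70 and 128), lay at 0.10 (−0.38 to 0.60). Of 4 genes whose symbols begin like those of proteasome subunits, Psmd11 was lower (11 and 2 distal reads, −2.99, −6.47 to −1.03), as was Psmc3ip, which is no subunit, and Psma2 lay at −0.81 (−2.03 to 0.39).

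Of 11 chaperones tested, Ppil2 was higher and Dnajb6 lower (15 and 4 distal, 498 and 436 upstream reads, −1.59, −3.77 to −0.05). Dnajb9, a cochaperone of BiP, went from a ratio of 1.03 to 1.68 (0.71, 0.40 to 1.03) without reaching 2-fold. None of 6 ribosomal protein genes was called; Rpl13a lay at 0.51 (0.13 to 0.91) and Rpl37a at −0.28 (−0.80 to 0.24). Among 9 genes of the respiratory chain only Ndufab1 was called, with 3 and 27 distal reads (2.33, 0.79 to 4.90), while Atp5b had ratios of 0.00730 and 0.00884 from 6810 and 9291 upstream reads. Of 24 solute carriers, Slc1a5, a glutamine transporter, was higher (0 and 5 distal reads, 0.90 or more) and Slc39a9, a zinc transporter, lower (20 and 20 distal, 698 and 1495 upstream, −1.10, −2.08 to −0.12). Of 22 zinc finger genes Zfp46 was lower (7 and 0 distal reads, −0.38 or below), and Zfp36, with 358 and 257 distal reads, lay at −0.03 (−0.27 to 0.21).

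Of 6 small GTPases Rab3a was higher (1.37, 0.65 to 2.10), and of 7 genes of ubiquitin conjugation and removal Usp43 was, with 0 and 9 distal reads and a change of 0.63 or more. None was called among 6 translation factors (Eif1ax at −0.04, −0.37 to 0.29), 3 splicing factors (Sf3b3 at 0.26, −0.11 to 0.65), 8 chemokines, interleukins and their receptors (Ccl2 at −0.24, −0.59 to 0.11, and Il10rb at 0.90, 0.28 to 1.61), or 2 keratins and claudins (Krt17 at 0.78, −0.10 to 1.83). Of the 3′ end processing machinery itself, Cpsf7, a subunit of cleavage factor I, had 7 and 4 distal reads (0.40, −1.90 to 2.31), and Wdr33, which reads the AATAAA hexamer, had none in 47 bp and, with 5 upstream reads after knockdown, was not tested. Dcn, a proteoglycan of fibroblasts, lay at 0.72 (0.45 to 0.99), and Cxcl12, a chemokine of cortical epithelium and stroma, had no distal read in 54 bp beside 3778 and 1323 upstream. No gene on the fixed histone, mature mTEC, B cell, dendritic cell and macrophage, endothelium or red cell lists had a short d3′UTR. These lists are not complete and leave out members such as Nos3, the endothelial nitric oxide synthase.

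The expression of the whole gene was compared on scaled read counts. Of 1153 genes with a short d3′UTR and at least 50 reads over both libraries, 203 were 2-fold higher in the knockdown library (17.6%), where 19.0% of all 17050 genes were, and 176 lower (15.3%), where 18.6% of all were. The median log2 ratio was 0.04 (−0.03 to 0.10) beside 0.003 over all genes. The Aire-sensitive members differed from this: of 132, 27 were higher (20.5%) and 55 lower (41.7%), with a median of −0.52 (−1.02 to −0.10), beside 17.2% and 11.9% and a median of 0.08 in the other 1021.

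The 10 members with the strongest changes of expression were Aire-sensitive apart from Qpct and Ercc6l. The largest falls were of Chp2, a calcineurin-like protein (224 and 0 reads, log2 −6.29 or below), and Fam167b (202 and 0, −6.14 or below). They were also of Slc7a9, a cystine transporter of kidney and gut (159 and 0, −5.79 or below), and Qpct, glutaminyl cyclase (134 and 0, −5.54 or below). Gdf6, a growth factor of the BMP family, completed them (270 and 2, log2 −7.10, −10.51 to −5.59). The largest rises were of Scg2, a secretory granule protein of neuroendocrine cells (0 and 426 reads, log2 6.47 or more), Lrrn3, a neuronal membrane protein (0 and 363, 6.23 or more), Rab38, a GTPase of melanosomes (0 and 173, 5.16 or more), Ercc6l, a mitotic helicase (2 and 578, log2 7.51, 5.94 to 10.85), and Gc, the vitamin D binding protein of liver (5 and 823, log2 6.86, 5.76 to 8.61). In each of these genes 1 library had under 10 last-exon reads, so the change of the ratio was not tested.

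The calls of the ratio and of expression crossed. Of the 55 genes with a higher ratio in the knockdown library, 19 were lower in expression and 2 higher, and of the 56 with a lower ratio, 13 were higher and 4 lower, while among 386 genes called neither way with at least 10 distal reads 40 were higher and 47 lower. The 2 measures are not independent, since the upstream reads that divide the ratio are part of the reads of the gene.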

How the data were processed

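Total RNA of both sorted populations was made into libraries with the SMARTer Ultra Low Input and Nextera kits and sequenced single-end (50 bases). Per the submitters' processing notes, the authors aligned reads to mm9 with Bowtie 1.0.0 and counted them with bedtools, and deposited whole-number read counts, not normalized, for each transcript and each part of it, with the length of each part. By the study's methods a read had to lie fully within a feature; the sources used here do not tell whether strand was used. The deposited DESeq table of fold changes and p-values was not used. No column belonged to another sample.

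The members, gene lists and sets were chosen with earlier results of these data known. For each gene the transcript with the most last-exon reads was kept. The change of the ratio is log2 of knockdown over Ctr with 0.5 reads added to each part, and its 95% interval is the exact conditional interval of the odds ratio (R 4.3.3); both libraries needed 10 last-exon reads. Medians of change need 10 distal reads. Expression was scaled by median-of-ratios size factors, with Clopper-Pearson intervals; edgeR 4.0.16 gave TMM factors as an alternative. Intervals cover counting error only. Where 0 reads left an interval open at 1 end, its other end is given. The floor of 3 reads takes the place of a 0 and leaves out the counting error of the other reads. With 1 library per group no test between conditions was possible. d3′UTRs were placed on NCBIM37 (mm9) with GENCODE vM1 from the start of the last exon and the deposited length; of 49 of the study's coordinates at hand 42 were placed, 41 at the same start and end. The interval method was tried on data simulated from the counting model it assumes, with at least 20 distal and 20 upstream reads. That run cannot show how the intervals behave with fewer reads or with other sources of variation. Genes named were the 8 strongest increases and decreases by interval bound (at least 20 distal reads), the 6 with most distal reads, the 4 highest and lowest ratios, the 5 strongest rises and falls of expression, the 4 strongest Aire-sensitive changes each way (at least 5 distal reads), and those of each list with most distal reads; Mat1a, Trpt1, Kansl1l, Osbpl1a, Mrps30, Mrps36, Mrpl16, Psmd11, Ndufab1, Slc1a5, Slc39a9, Dnajb6 and Zfp46 were named for their calls, overlap or ratio after their values were seen.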

Additional observations from a re-analysis of the deposited data

How the results depend on the processing

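No paired analysis was possible because there was 1 library per group. Of 125 values from 21 other settings, 99 stayed within the interval of the value given above or within 1.5 times its count. The share of genes with a distal read rose to 60.6% in Ctr and 64.3% in the knockdown library with at least 100 last-exon reads in each. The median ratio depended on which lengths entered, since stretches under 50 bp hold no full read: it was 0.170 and 0.202 at 50 bp or more, 0.326 and 0.362 there by start positions, 0.310 and 0.351 at 100 bp or more, and 0.449 and 0.478 as summed reads over summed length. With 100 last-exon reads the Ctr median was 0.0680. The counts of genes called higher and lower fell where fewer genes were tested, to 36 and 35 at 100 bp or more, and to 35 higher with 100 last-exon reads. At 3-fold 37 were lower. Of the Aire-sensitive genes, 2 were higher and 1 lower with 100 last-exon reads, and 2 higher without opposite-strand overlap. Settings chosen after seeing the data gave 30 higher and 22 lower, with 0 lower among the Aire-sensitive, where the last exon matched the annotation exactly. In placed genes with no exon of another gene there were 35 higher, 2 higher and 1 lower among the Aire-sensitive, and medians of 0.0122 and 0.0415. The median change stayed within its interval in every setting tried. At 1.5-fold and 3-fold it could not move, since the fold limit does not enter it, and these values are counted in the 99. With 1 library per group, variation between mice, and of the GFP sort, is unknown.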
